A study of Rattus norvegicus with 10 samples.

Results

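Histamine synthesis and histidine breakdown compete for the same amino acid, and 5 genes stand for them here: Hdc, Hal, Uroc1, Ftcd and Hnmt. Every probe set (a group of short probes for a transcript on the array) that the platform annotation gives to one of these symbols was taken, which gave 6 probe sets, 1 for each gene except Hnmt with 2, out of 20826 probe sets for 14217 genes with a single symbol. The genes were chosen by symbol with their signals across the diets already known, so those signals are given as a description. The study measured liver RNA of male Wistar rats, an outbred laboratory strain, on 10 arrays, 2 per diet. For 12 weeks the rats ate food in which fat gave 42% of the energy, the fat being fish oil (called cod liver oil in the design text), lard, olive oil or coconut fat, or they ate standard chow, whose fat share the labels do not give. All rats were fasted overnight before a piece of liver was frozen. The labels call each array a liver sample of a rat without stating whether any RNA was pooled. The spread between the 2 arrays of a diet may be partly technical.

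Histidine has competing fates in the liver. Histidine decarboxylase, the product of Hdc, removes its carboxyl group and makes histamine, a signalling amine stored mainly by mast cells and basophils and made on demand by other cells. Breakdown for energy and nitrogen starts with histidase (Hal), which releases ammonia and leaves urocanate. Urocanase (Uroc1) acts on urocanate, imidazolonepropionase (Amdhd1) follows, and formimidoyltransferase cyclodeaminase (Ftcd) passes the last one-carbon group to tetrahydrofolate, leaving glutamate. Histamine N-methyltransferase (Hnmt) inactivates histamine inside cells. In rat liver, histidase is known to rise with dietary protein and with glucagon.

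Promoters are shown for Hdc, the gene with the widest range across diets, and for Uroc1 and Ftcd, whose diet means spanned less, so that the start regions of genes with different patterns can be set side by side. RefSeq promoters (GRCr8, 250 bases before to 50 bases after the start of the gene) matched 4 of the 5 genes, all but Hal. Each is written 5′ to 3′ on the strand of the gene. Capitals mark matches, on either strand, to 5 short motifs that were picked with the sequences in view and are spelled out after the sequences. The Hdc window is chr3:134318655-134318954 on the minus strand, the Uroc1 window chr4:124401869-124402168 on the plus strand and the Ftcd window chr20:12068170-12068469 on the minus strand.
Hdc promoter: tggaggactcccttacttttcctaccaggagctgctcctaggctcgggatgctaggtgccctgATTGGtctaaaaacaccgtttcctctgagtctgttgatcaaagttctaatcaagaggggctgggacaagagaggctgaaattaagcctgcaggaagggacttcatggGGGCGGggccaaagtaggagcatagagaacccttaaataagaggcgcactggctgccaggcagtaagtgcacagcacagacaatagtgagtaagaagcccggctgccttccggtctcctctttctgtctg
Uroc1 promoter: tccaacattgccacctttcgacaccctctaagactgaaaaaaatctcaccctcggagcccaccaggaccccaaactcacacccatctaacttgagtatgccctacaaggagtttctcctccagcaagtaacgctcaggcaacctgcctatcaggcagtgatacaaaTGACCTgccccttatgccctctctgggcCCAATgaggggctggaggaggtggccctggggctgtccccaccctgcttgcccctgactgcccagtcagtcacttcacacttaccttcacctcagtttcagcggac
Ftcd promoter: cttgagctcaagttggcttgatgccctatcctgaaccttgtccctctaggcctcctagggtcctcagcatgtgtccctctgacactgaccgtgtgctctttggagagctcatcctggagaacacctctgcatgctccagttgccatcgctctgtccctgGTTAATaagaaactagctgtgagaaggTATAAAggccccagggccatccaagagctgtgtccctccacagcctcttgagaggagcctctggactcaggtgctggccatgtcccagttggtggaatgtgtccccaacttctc

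The Hdc window held 1 GC box, searched as GGGCGG, beginning 80 bases before the start, and 1 match to the CCAAT motif on the opposite strand, beginning 187 bases before it. Among 27457 promoters of the same length, 34.9% held the GC box and 37.7% the CCAAT motif. Uroc1 had 1 nuclear receptor half-site on the opposite strand, searched as AGGTCA, which 15.7% of promoters held, beginning 84 bases before the start, and a CCAAT motif at 56 bases. The Ftcd window held a TATAAA motif beginning 64 bases before the start (14.3% of promoters) and a half-site of the liver factor HNF1, searched as GTTAAT, at 91 bases (7.37% of promoters). None of the matches in these 3 windows overlapped another. GC content was 52.7% for Hdc, 55.7% for Uroc1 and 55% for Ftcd, against a median of 52.3% over all promoters. A match is a description of these letters, not a site in use.

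All arrays were scaled to a 2% trimmed mean of 100, and the median signal of an array ran from 28.7 to 31.9 apart from the second lard array at 36.8, whose mean correlation with the arrays from other diets was the lowest as well (0.927, against 0.93 to 0.942). Of 31042 probe sets that are not controls, the 18625 brightest were fitted, among them Hdc, Hal, Uroc1 and Ftcd; both Hnmt probe sets were too dim. Signals are MAS5 intensities on a linear scale, and fold changes are differences of log2(signal + 3.1) with their standard error (SE). Signals were compared between diets and never between genes, since probes differ in brightness. In whole liver, more cells of a type and more RNA per cell cannot be told apart.

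Hdc, the histamine-making enzyme, was high with fish oil and low with each of the other diets. Its signal was 525.5 and 487.3 on the fish oil arrays, 45.1 and 21 on the lard arrays, 35.8 and 30.4 on the olive oil arrays and 57.5 and 33.7 on the coconut fat arrays, against 41.4 and 33.2 on the chow arrays. The lower fish oil array thus lay far above the brightest of the other 8, and the other diets overlapped one another. Diet means were 506 ± 27 with fish oil, 33 ± 17 with lard, 33.1 ± 3.82 with olive oil, 45.6 ± 16.8 with coconut fat and 37.3 ± 5.8 with chow (SD, n = 2 each).

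The Hdc log2 fold change with fish oil was 3.66 (SE 0.35) against chow, the second highest of 18625 fitted probe sets, and 3.72 (SE 0.29) when set against the lard, olive oil and coconut fat diets together, the fourth highest. The Hdc differences from chow were -0.24 with lard, -0.15 with olive oil and 0.23 under coconut fat, each with an SE of 0.35. Leaving out 1 lard array turned the sign with lard (-0.74 to 0.26), and leaving out 1 coconut fat array did so with coconut fat (-0.13 to 0.59). In order of level, fish oil was followed by coconut fat after a gap of 3.43 on the log2 scale, against a pooled SD between arrays of 0.408. The gaps below that, from coconut fat to chow (0.23), to olive oil (0.15) and to lard (0.08), were all smaller than this SD. On all 10 arrays the signal of Hdc stood above 12.8, the brightest value of any trp control (a bacterial gene that rat RNA lacks), which serves here as the background level. Both fish oil arrays lay above all others for 3.72% of fitted probe sets.

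**Figure D1:**
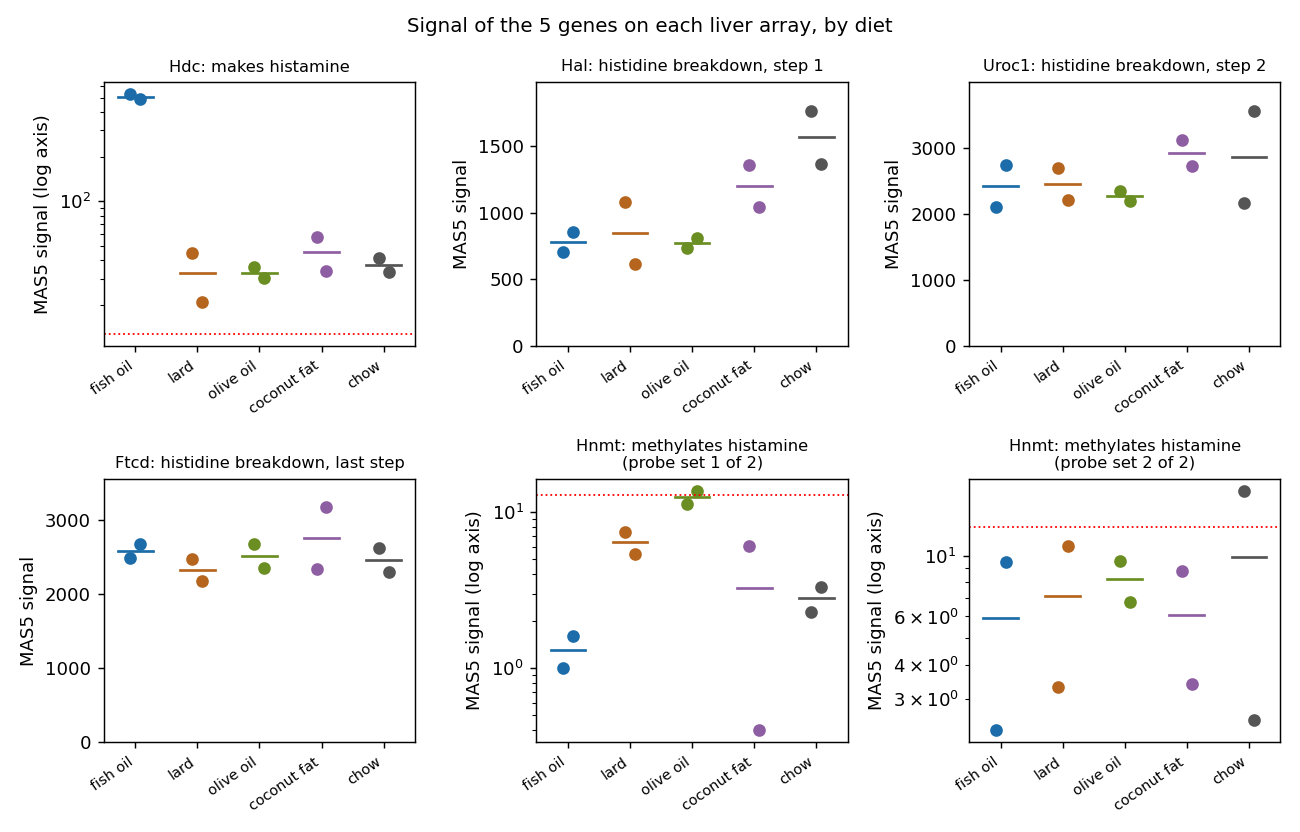
MAS5 signal of each probe set of the 5 genes on each array (points) with the mean of the diet (bars), by diet; Hdc and Hnmt are on log axes, and the dotted red line marks the background level of 12.8. Hdc is near 500 on both fish oil arrays and at 57.5 or less on the other 8, Hal is highest on the chow arrays, Uroc1 and Ftcd overlap between diets next to each other in level, and Hnmt lies at or below the line on 9 of 10 arrays with each probe set.

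Hal, which commits histidine to breakdown, showed another order, with each high-fat diet below chow. Its signal was 708.6 and 854.6 with fish oil, 1078.9 and 612.3 with lard, 735.8 and 810.1 with olive oil and 1362.4 and 1043.3 under coconut fat, against 1768.8 and 1364.5 with chow. All 8 high-fat arrays lay below both chow arrays, although the first coconut fat array nearly reached the second chow array. An order of this kind was found for 2.51% of fitted probe sets. Means were 782 ± 103 with fish oil, 846 ± 330 with lard, 773 ± 52.5 with olive oil and 1203 ± 226 under coconut fat, against 1567 ± 286 with chow (SD, n = 2 each).

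The Hal log2 fold changes against chow were -0.99 with fish oil, -0.93 with lard, -1.01 with olive oil and -0.38 under coconut fat, each with an SE of 0.25. By size, 4.76% of fitted probe sets differed at least as much as Hal with fish oil, 6.32% with lard, 5.08% with olive oil and 27.2% under coconut fat. The lard value rests on arrays that stood apart, and became -1.34 once the first lard array was left out, or -0.52 once the second was. The coconut fat value was -0.57 without its first or the second chow array, and -0.19 without its second or the first chow array. With fish oil Hal differed from the mean of the other 3 fats by -0.22 on the log2 scale (SE 0.2). That mean joins unlike diets, since both coconut fat arrays lay above all fish oil and olive oil arrays. The mean log2 signal was 10.22 with coconut fat and 9.61 with fish oil. In the order chow, coconut fat, lard, fish oil and olive oil, the arrays of every neighbouring pair below chow overlapped, and the lower 3 diets were within 0.06 on the log2 scale of their neighbour.

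The later steps spanned a narrower range across diets. Uroc1, urocanase, had signals of 2095.8 and 2731 with fish oil, 2697.6 and 2206.8 with lard, 2339.7 and 2187.1 with olive oil and 3112.7 and 2723.2 under coconut fat, against 2156.6 and 3560.6 with chow. The chow arrays were 1.65-fold apart and enclosed 7 of the 8 high-fat arrays, all but the first fish oil array, so that the sign of a Uroc1 difference from chow turned on which chow array was used. With fish oil the log2 fold change was -0.21 (SE 0.22), and leaving out the first chow array gave -0.57, leaving out the second 0.15. Diets next to each other in level overlapped, whereas both coconut fat arrays lay above all lard and olive oil arrays. Over all 5 diets the means of Uroc1 spanned 0.36 on the log2 scale, against a pooled SD of 0.282.

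Ftcd, the last enzyme of the route, was the steadiest. Its signal was 2482.9 and 2678.3 with fish oil, 2474.3 and 2184.8 with lard, 2680.8 and 2357 with olive oil and 2337.7 and 3177.9 under coconut fat, against 2622.3 and 2306.3 with chow. Diets next to each other in level overlapped, whereas both fish oil arrays lay above both lard arrays, the lower by 2482.9 against 2474.3. The Ftcd means spanned 0.23 on the log2 scale (pooled SD 0.176), and the differences from chow were 0.07 with fish oil, -0.08 with lard, 0.03 with olive oil and 0.15 under coconut fat, each with an SE of 0.16. Leaving out 1 array turned the sign of each, with ranges of -0.02 to 0.16, -0.17 to 0.01, -0.06 to 0.12 and -0.07 to 0.37 in the same order of diets. Across all 10 arrays the coefficient of variation was 11.1% for Ftcd, 18.6% for Uroc1, 35.5% for Hal and 151% for Hdc.

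**Figure D2:**
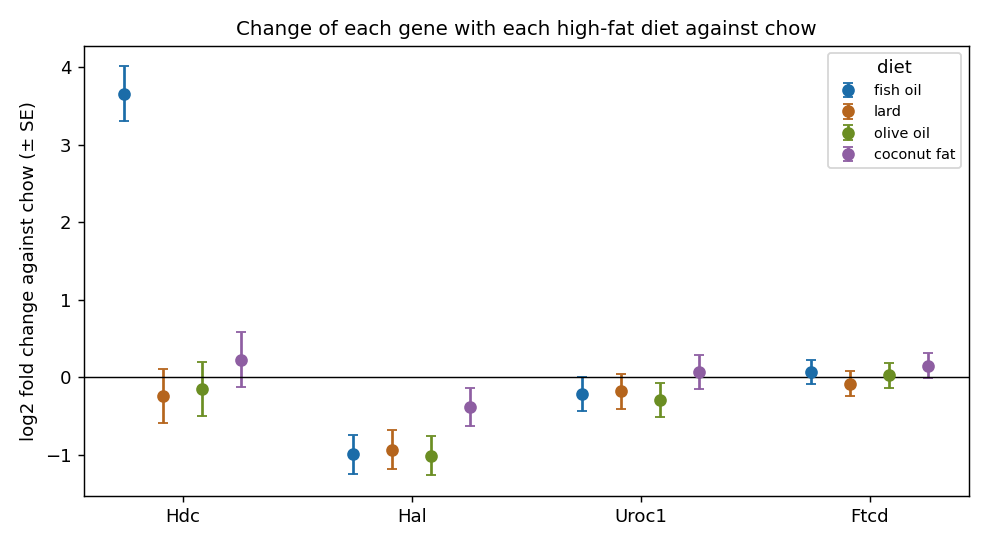
Log2 fold change against chow (points) with its SE (bars) for Hdc, Hal, Uroc1 and Ftcd with each high-fat diet. Hdc departs from 0 with fish oil (3.66), Hal is below 0 with all 4 fats (-0.38 to -1.01), and Uroc1 and Ftcd stay between -0.29 and 0.15.

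Hnmt, which methylates histamine, was near or under background in these livers. The first Hnmt probe set read 1 and 1.6 with fish oil, 7.5 and 5.4 with lard, 11.3 and 13.7 with olive oil and 6.1 and 0.4 under coconut fat, against 2.3 and 3.3 with chow. On the second probe set the signals were 2.3 and 9.5 with fish oil, 3.3 and 10.9 with lard, 9.6 and 6.8 with olive oil and 8.8 and 3.4 under coconut fat, against 17.3 and 2.5 with chow. Of the 10 arrays, 9 were at or below 12.8 with each probe set, and the array above it differed between them. No order of diets is read from these values.

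Arrays of the same diet differed most for Hdc and Hal under lard, by 2.15-fold and 1.76-fold. All 4 bright genes were lower on the second lard array, the one with the raised median signal, than on the first. With olive oil the arrays were close for each of the 4, at 1.07- to 1.18-fold apart, and with fish oil Hdc was 1.08-fold, Hal 1.21-fold and Uroc1 1.3-fold apart. The widest gap for Uroc1 was with chow and for Ftcd with coconut fat (1.36-fold).

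At an adjusted p of 0.05 in limma, 1 of the 4 genes fitted, Hdc, was called with fish oil against chow, where 0.156% of all fitted probe sets were called, and again with fish oil against the other 3 high-fat diets, where 0.424% were. With lard against chow 0 of 4 were called (0.0161% of all), with olive oil 0 of 4 (0.0268%) and with coconut fat 0 of 4 (0%, with 1012 probe sets at an unadjusted p under 0.05). Because the genes were chosen with these contrasts known, the counts are given for completeness and support nothing.

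Other genes of histamine handling did not pass the test with any diet. Of 14 listed genes for breakdown, receptors and transport of histamine, 12 were on the array and 6 bright enough to fit, and limma called 0 of 6 in each of the 5 comparisons, with 1 at an unadjusted p under 0.05 (Maoa with fish oil against the other 3, named after its value was seen). The median log2 fold change of the 6 with fish oil against chow was 0.05, beside -0.01 over all fitted probe sets. Maoa, a monoamine oxidase, gave 609.9 and 682.3 with fish oil against 513.1 and 548.9 with chow (log2 fold change 0.28, SE 0.15, limma adjusted p = 0.736). Maob, which oxidises methylated histamine, had 1453.1 and 1792.8 with fish oil against 1680.4 and 1784.8 with chow. Slc22a2, an organic cation transporter, ran from 4.1 to 22.3 with fish oil and from 8.1 to 31.6 with chow (log2 fold change -0.54, SE 0.74, limma adjusted p = 0.946). Aoc1, diamine oxidase, and the histamine receptors Hrh1, Hrh2, Hrh3 and Hrh4 were too dim to fit; Hrh2 and Hrh4 were at or below 12.8 on all 10 arrays.

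Genes around the breakdown route did not pass the test either. Of 12 listed genes that charge, carry or store histidine, 9 were on the array and all 9 were fitted; limma called 0 in each comparison, with 1 at an unadjusted p under 0.05 (Slc38a5 with coconut fat, named after its value was seen). With fish oil 8 of these 9 were below chow, with a median of -0.12, beside 51.5% and -0.01 over all fitted probe sets. With lard 2 of the 9 were below chow (44.7% of all fitted probe sets), with olive oil 3 (48.3%) and with coconut fat 6 (52.1%). Slc15a4, a transporter of histidine and peptides, differed most, with 60.7 and 72 under fish oil against 98 and 90.1 under chow (log2 fold change -0.49, SE 0.3, limma adjusted p = 0.795). Slc7a5, a carrier of large neutral amino acids, differed by 0.42 on the log2 scale (SE 0.41, limma adjusted p = 0.907). The third enzyme of the route, Amdhd1, had no probe set under that symbol.

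Ftcd hands its one-carbon group to folate, and 9 of 16 listed folate genes could be fitted. Limma called 0 of them in any comparison, with 5 unadjusted p values under 0.05, of which 3 belonged to Ggh, a folate hydrolase, and the others to Mthfd1 and Shmt1 with lard (the last 2 named after their values were seen). With fish oil, Ggh had 142.9 and 115.6 against 186.8 and 271.4 with chow (log2 fold change -0.79, SE 0.21, limma adjusted p = 0.289). Mthfd2l, a mitochondrial folate dehydrogenase, differed by 0.86 on the log2 scale (SE 0.57, limma adjusted p = 0.817). As with Uroc1, the second chow array was the brighter one for Aldh1l1 (1540.5 and 3231.5 on the chow arrays) and Mthfd1 (1162.9 and 1705).

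Set among 21 fitted genes of the breakdown of other amino acids and of the urea cycle, Hal lay with the lower ones. In this list 16 of 21 genes were below chow with fish oil (median log2 fold change -0.34, beside -0.01 over all probe sets), 18 with lard (-0.27, beside 0.04), 18 with olive oil (-0.21, beside 0.02) and 15 with coconut fat (-0.18, beside -0.02). Hal, at -0.99, -0.93, -1.01 and -0.38, was below each of these medians. Over all fitted probe sets, 51.5%, 44.7%, 48.3% and 52.1% were below chow, in the same order of diets. In that order limma called 1, 2, 2 and 0 of the 21 genes lower, and it called 0 higher. Of all 18625 fitted probe sets it called 29, 3, 5 and 0 in either direction. At an unadjusted p under 0.05 in limma were 12, 9, 10 and 7 of the 21, where 1421, 1489, 1561 and 1012 of all were. Among the listed genes so counted, Otc with fish oil (log2 fold change 0.44) and Prodh2 with olive oil (0.54) were above chow (both named after their values were seen). Gpt, alanine aminotransferase, fell with olive oil to 346.3 and 459.4, against 2003.5 and 1957.9 with chow (log2 fold change -2.3, SE 0.19, limma adjusted p = 0.00156). Sds, serine dehydratase, fell with olive oil to 20.9 and 55.5, against 693.9 and 875.7 with chow (-4.38, SE 0.47, limma adjusted p = 0.00843).

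With lard, Sds (-3.69, SE 0.47) and Got1, aspartate aminotransferase (-1.86, SE 0.23), fell with a limma adjusted p of 0.0464 each, and with fish oil Gpt fell (-1.26, SE 0.19, limma adjusted p = 0.032). The Gpt call with fish oil was lost without either lard array, either chow array or the second fish oil array (limma adjusted p = 0.0722 to 0.153), both lard calls without either lard, fish oil or chow array (0.0622 to 0.208), and that of Sds with olive oil without the first olive oil (0.0559) or first chow array (0.0681). Fish oil against the other 3 high-fat diets gave 0 calls in limma in this list (4 at an unadjusted p under 0.05, namely Sds, Hpd, Gldc and Prodh, the last 3 named after their values were seen) and a median of -0.05.

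**Figure D3:**
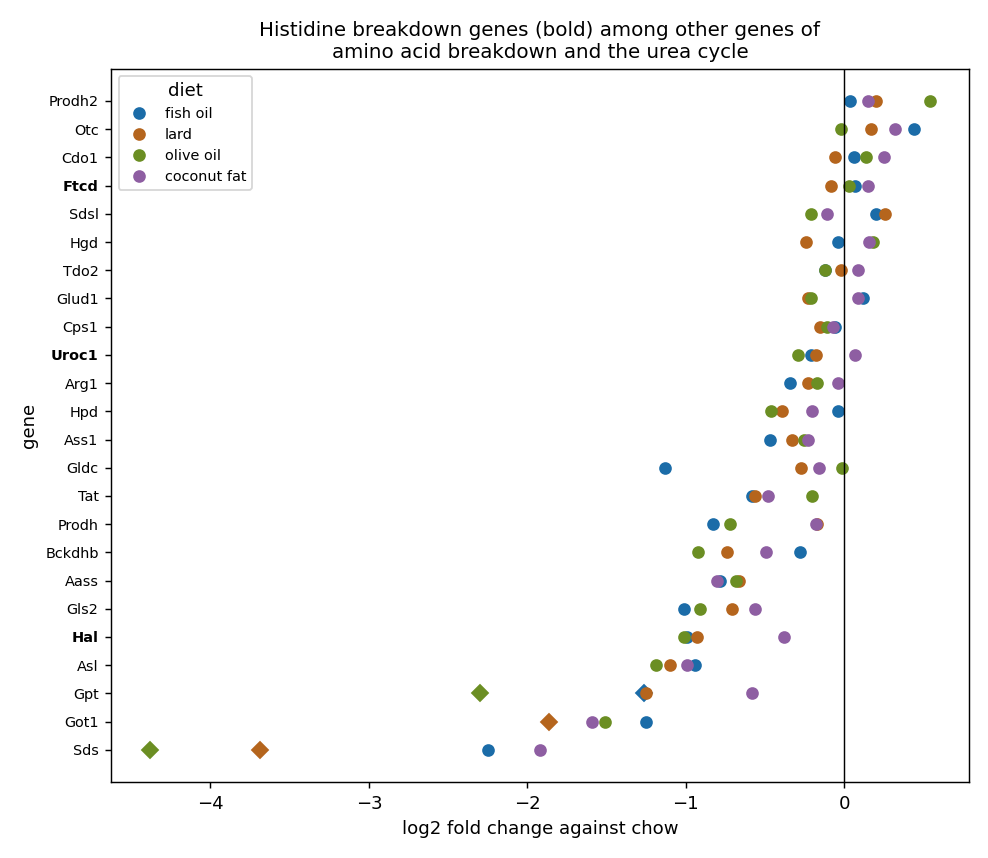
Log2 fold change against chow (horizontal axis) of Hal, Uroc1 and Ftcd (bold) and of 21 other genes of amino acid breakdown and the urea cycle (rows, ordered by their mean), with 1 point per high-fat diet; diamonds mark listed genes that passed limma's test. Hal sits beside Gls2 and Asl among the lower genes, whereas Uroc1 and Ftcd sit near 0.

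Hal is a gene of periportal hepatocytes, those near the portal vein, and markers of these cells were below chow with fish oil in 7 of 8 cases (median -0.63), against medians of -0.16 for lard, -0.07 for olive oil and -0.08 for coconut fat. Their summed signal ran from 14943 to 17236.6 with fish oil, 16732.2 to 17873.7 with lard, 17721.3 to 18589.6 with olive oil and 17722.1 to 19539.1 under coconut fat, against 20637.2 to 21316.2 with chow, and all 8 genes were above 12.8 on every array. The largest parts of this sum were Pck1 (mean 6285 with fish oil and 7044 with chow) and Ass1 (6216 and 8594). Gene by gene, both fish oil arrays lay below all others for 2 of the 8 and above all others for 0. Gls2, Sds and Ass1 belong to this list and to that of amino acid breakdown. Of the 8, limma called Sds under lard and olive oil and no other. At an unadjusted p under 0.05 in limma were 6 of 8 with fish oil, where 1421 of 18625 fitted probe sets were. Hsd17b13, 1 of these 6, was above chow. The counts were 2 of 8 with lard (1489 of all), 4 with olive oil (1561) and 2 with coconut fat (1012). Of the 4 with olive oil, Hsd17b13 (log2 fold change 0.61) and Aldh1b1 (1.13) were above chow. The part of periportal hepatocytes in the Hal values was not tested. Pericentral markers, of cells near the central vein, had a summed signal of 13849.1 to 14340.1 with fish oil, 9636.3 to 11099.5 with lard, 6991.2 to 10100.8 with olive oil and 10101.3 to 10946.3 under coconut fat, against 11292.2 to 13285.9 with chow. This sum was thus above chow with fish oil and below it with the other 3 fats. Its largest part was Cyp2e1, with a mean of 8968 with fish oil and 7195 with chow. Of 5 fitted pericentral genes, 4 were above chow with fish oil, and 3, 3 and 4 were below it with lard, olive oil and coconut fat. Oat was lower with fish oil (mean 1624) than with chow (2119), and Glul was above chow (848) with lard (1049), olive oil (938) and coconut fat (1090). Limma called 0 of 5 fitted pericentral genes in each comparison, with 5 values at an unadjusted p under 0.05 over the 5 comparisons.

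Cells other than hepatocytes can hold Hdc. Of 12 mast cell markers 11 were on the array, and 1, Hpgds, was above 12.8 on all 10 arrays; Tpsab1, a mast cell tryptase, was at or below it on all of them and Kit on 8. Their summed signal was 205.1 to 235.5 with fish oil, 214.1 to 279.2 with lard, 218.4 to 224.4 with olive oil and 138.5 to 162.8 under coconut fat, against 200.9 to 252.1 with chow. The fish oil arrays were within the range of the other diets in this sum. Gene by gene, both fish oil arrays lay above all others for 3 of the 11 (Cpa3, Cma1 and Tpsab1) and below all others for 0. Over all fitted probe sets, 3.72% had both fish oil arrays above the others. Cma1 and Tpsab1 were too dim to fit, so this share does not cover them. Tpsab1 had 10.4 and 9.9 with fish oil and up to 8.1 on the others. Cma1, mast cell chymase, was at or below background on 5 arrays, with 20.1 and 19.3 with fish oil and up to 19.1 on the others. Cpa3, mast cell carboxypeptidase, had 37.1 and 27.4 with fish oil, 12.5 to 25.8 with the other fats and 21 and 18.6 with chow, while Tpsb2, another tryptase, had 23.5 and 22.1 with fish oil against 37.1 and 59 with chow. Limma called 0 of the 4 mast cell markers bright enough to fit in all 5 comparisons, with Tpsb2 and Hpgds at an unadjusted p under 0.05 with coconut fat (named after their values were seen). The part of mast cells in the Hdc values was not tested.

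Basophil markers summed to 33.5 to 52 with fish oil and 34.8 to 66.7 with the other fats, against 46 to 52.6 with chow, and Mcpt8 was at or below 12.8 on all arrays. Neutrophil markers summed to 58.2 to 59.4 with fish oil and 54.3 to 162.5 with the other fats, against 60.4 to 73.7 with chow. For Kupffer cells and other macrophages the sums were 1645.3 to 1676.7 with fish oil and 1704.5 to 2620.3 with the other fats, against 2198 to 2489.2 with chow. The fish oil arrays were thus the lowest in this sum, whose largest part was Clec4f. Gene by gene, both fish oil arrays lay below all others for 1 of the 6 (Cd68) and above all others for 0. Limma called 0 of 6 in each comparison. Platelet and megakaryocyte markers summed to 194.7 to 254.9 with fish oil and 189.7 to 389.7 with the other fats, against 193.1 to 288 with chow. Of neuroendocrine markers, Chga and Scg2 were at or below 12.8 on all arrays, and the sums were 86.8 to 89.2 with fish oil and 33.8 to 143.7 with the other fats, against 75.1 to 76.5 with chow. The 8 hepatocyte markers on the array were above background on every array, so the labelled tissue was borne out by its defining genes.

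**Figure D4:**
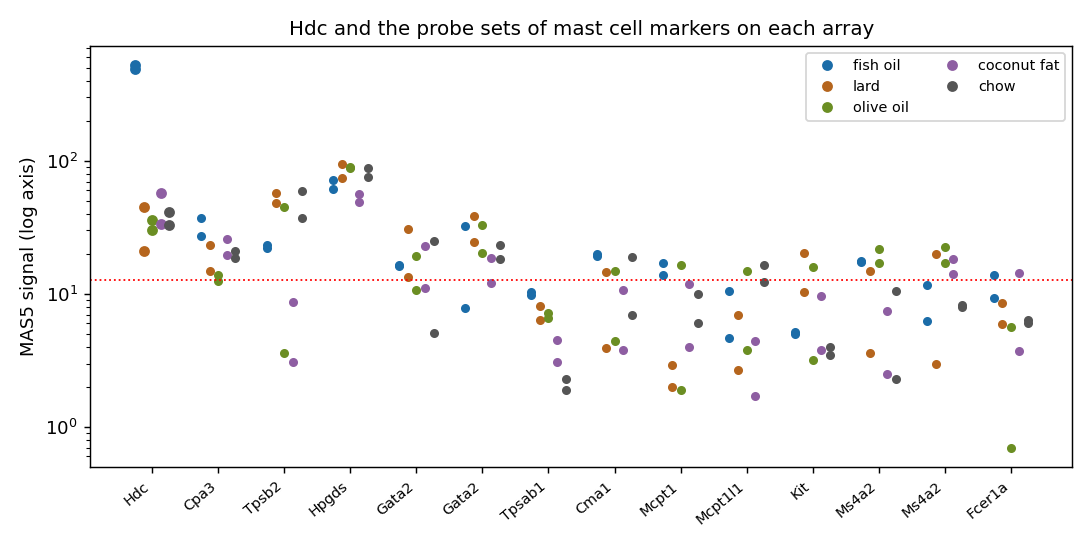
MAS5 signal (log axis) of Hdc and of each probe set of the mast cell markers on each array, with 1 column of points per diet; the dotted red line marks the background level of 12.8. Hdc separates the fish oil arrays (487.3 and 525.5) from the rest, while most mast cell markers lie around the line; Hpgds is above it on every array, and Tpsb2 ranges from 3.1 to 59.

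The genes whose array profile was most like that of Hdc were found by the root mean square difference of log2 signals over the 10 arrays, each profile centred on its own mean, among 10470 fitted genes. They were Mt2A, a metallothionein (0.84), Gsta3, a glutathione transferase (0.88), Aldh1a1, a retinaldehyde dehydrogenase (0.92), Ehhadh, a peroxisomal beta-oxidation enzyme (0.93), and Acot2, an acyl-CoA thioesterase (0.98). Each difference was larger than the pooled SD of Hdc itself (0.408). Gsta3 was nearest in its step with fish oil, at 243.5 and 717.3 against 15 and 68.1 with chow. Its arrays of the same diet stood far apart, also with lard (40.3 and 17.4) and olive oil (63.7 and 9.8, the latter below background). Aldh1a1 had 3681.1 and 3417.8 with fish oil and 290.5 and 454.9 with chow, but unlike Hdc it was between these under lard, olive oil and coconut fat, at means of 928, 856 and 1100.

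For Hal the nearest profiles were those of Gls2, the liver glutaminase (0.21), Dcun1d4 (0.24) and Slc25a15, the mitochondrial ornithine carrier (0.25). The pooled SD of Hal was 0.323, but these values were picked as the smallest among 10470 genes, so the search itself makes them small. Gls2 had 959.9 and 1122.4 with fish oil, 1404.8 and 1159.7 with lard, 1119.3 and 1108.3 with olive oil and 1739.7 and 1163.3 under coconut fat, against 2041.8 and 2150.7 with chow. Its log2 fold changes against chow, -1.01 with fish oil, -0.71 with lard, -0.91 with olive oil and -0.56 under coconut fat, did not pass in limma (adjusted p = 0.0749 with fish oil). Slc25a15 was represented by the nearest of its 5 fitted probe sets and Dcun1d4 by the nearer of 2.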

How the data were processed

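Liver RNA of 10 rat samples, 2 per diet, was measured on 1 array each. The authors deposited MAS5 signal intensity, not on a log scale, per the submitters' processing notes; the software version, raw scans and detection calls are not given in the sources used here. The values show that each array was scaled to a 2% trimmed mean of 100. Samples were grouped by their titles.

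From 31099 probe sets, 57 controls were removed; 3.1 (the 10th percentile) was added to each signal before log2, and the dimmest 40% (12417) were left out. One mean per diet was fitted to 10 arrays in limma 3.58.1 (R 4.3.3; residual df 5, and prior df 5.96 from eBayes with its trend on mean signal), with Benjamini-Hochberg adjustment over 18625 probe sets in each of 5 comparisons. Of all non-control probe sets, 20826 had 1 symbol, 436 several and 9780 none. Each listed gene is represented by its brightest probe set, each gene in the search for alike profiles by its nearest, and Hnmt by both of its own. The script was tested on simulated data. The number of arrays limits the precision.

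Members, lists and tests were chosen with earlier results of these data known. Named from each list were up to 4 called genes, otherwise the 2 with the largest fold change with fish oil; most alike profiles were sought for genes whose diet means spanned at least 1 on the log2 scale. Alternatives were other normalizations, offsets, filters, variance models and sets of arrays. Motif choices were made after the sequences were seen.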

Additional observations from a re-analysis of the deposited data

How the results depend on the processing

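Of 200 log2 differences of Hdc, Hal, Uroc1 and Ftcd under other settings, 0 moved by more than the spread between arrays, and with 1 array left out 14 of 200 did. Many of these values could not move. A change of filter, variance model, replicate block or set of diets fitted leaves a difference between diet means as it was. So does leaving out an array of a diet outside the comparison. With fish oil against chow, Hdc was 3.45 to 3.77 under the settings and 3.52 to 3.81 with an array left out, and Hal was -1.18 to -0.81 with an array left out. Against the other 3 high-fat diets these were 3.55 to 3.88 for Hdc and -0.36 to -0.09 for Hal. The 3 probe sets and 2 listed genes called with lard became 0 and 0 under quantile normalization and with a floor in place of the offset. The 5 called with olive oil became 11 with no filter, 16 with the dimmest 60% left out and 15 under robust eBayes, which left 1 listed gene with lard. Without the intensity trend, calls were 7 with fish oil, 1 with lard, 0 with olive oil and 6 with fish oil against the other fats, and listed genes were 0 with each of fish oil, lard and olive oil. In fits of the diets compared alone, 8 probe sets were called with lard, 5 with coconut fat and 120 with fish oil against the other fats, and listed genes were 2 with fish oil and 1 with fish oil against the other fats. With 1 array left out, probe set calls were 5 to 41 (fish oil), 0 to 6 (lard), 3 to 23 (olive oil), 0 to 3 (coconut fat) and 31 to 113 (fish oil against the other fats), and listed genes 0 to 3, 0 to 2, 1 to 3, 0 to 0 and 0 to 1 in the same order. Where this left 1 array for a diet, it was assumed to vary like the others. Samples of different diets share only a replicate number (0 of 10 pairs correlated above 0.1). With the replicate block, lard calls were 0 and listed genes 0 with lard and 0 with fish oil. The cause of these changes was not tested. With 2 arrays per diet, precision is limited, and Hnmt could not be ordered because it was near background.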
